A study of Homo sapiens with 6 samples.

Results

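The 8 genes described here are chemokine ligands: CXCL1, CXCL2, CXCL3, CXCL5, CXCL6 and CXCL8, which attract neutrophils, and CCL2 and CCL20, which were listed with them. They were chosen by symbol, and all 8 were found among the 38637 genes of the table. RNA came from the OVCAR8 line, ovarian cancer cells of human origin with wild type genotype, kept for 72 h with DMSO, the solvent, or with 2 nM pladienolide B, an inhibitor of the splicing factor SF3B1. Each group had 3 samples, poly(A) RNA was sequenced, and the question of the comparison was what inhibition of SF3B1 does to gene expression in ovarian cancer cells. The labels do not say whether the replicates came from separate cultures, so p-values measure only the spread between these samples, which may be technical. Both groups are cultures of 1 cell line.

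Chemokines are small secreted proteins that direct the movement of leukocytes through G protein-coupled receptors. The 6 CXC members carry a glutamate-leucine-arginine motif and act on neutrophils through CXCR2, and CXCL6 and CXCL8 also act through CXCR1. CCL2 is known for attracting monocytes through CCR2, and CCL20 attracts lymphocytes and dendritic cells through CCR6, and both belong to the CC group. Epithelial and tumour cells make several of these ligands after IL-1 or TNF stimulation. NF-kB and AP-1 factors drive their transcription, and AU-rich elements in the 3′ UTR make their mRNAs short-lived.

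The 6 CXC genes lay within 359 kb of chromosome 4, in the order CXCL8, CXCL6, CXCL1, CXCL5, CXCL3 and CXCL2. CXCL8, the gene for interleukin-8, was at chr4:73740569-73743716 and CXCL2 at the other end was at chr4:74097040-74099195. CCL20 was at chr2:227813842-227817556 and CCL2 at chr17:34255285-34257203. The positions in the table were those of the RefSeq genes of GRCh38.p14 for 8 of 8 members. In the GENCODE canonical transcripts CCL2 had 3 exons and the other 7 genes had 4. No gene of the table overlapped a member.

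The promoters are shown because they hold the sequence that 6 of the 7 genes in the RefSeq promoter table (GRCh38.p14) had in common. Each promoter ran from 250 bases before the gene start to 50 after it. The run GGAATTTCC, the core of an NF-kB type site, was in the promoters of CXCL1, CXCL2, CXCL3, CXCL5, CXCL6 and CXCL8, and in 0.461% of the 35116 promoters of the same length. The lines below give the run in capitals with 30 bases on each side, read 5′ to 3′ on the strand of the gene.
CXCL1 (chr4:73869285-73869353, plus strand): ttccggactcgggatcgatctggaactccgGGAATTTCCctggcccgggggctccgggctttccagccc
CXCL2 (chr4:74099234-74099302, minus strand): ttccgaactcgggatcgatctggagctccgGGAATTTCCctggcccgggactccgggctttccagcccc
CXCL3 (chr4:74038729-74038797, minus strand): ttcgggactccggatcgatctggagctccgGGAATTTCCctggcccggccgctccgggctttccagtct
CXCL5 (chr4:73998729-73998797, minus strand): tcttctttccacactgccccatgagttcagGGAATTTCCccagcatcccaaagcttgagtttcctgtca
CXCL6 (chr4:73836559-73836627, plus strand): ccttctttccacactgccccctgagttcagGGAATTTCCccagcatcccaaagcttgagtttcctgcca
CXCL8 (chr4:73740448-73740516, plus strand): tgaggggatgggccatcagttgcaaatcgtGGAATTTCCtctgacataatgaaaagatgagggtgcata

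The run ended between 68 and 82 bases before the start in all 6 genes. The stretches around it were alike within CXCL1, CXCL2 and CXCL3 and within CXCL5 and CXCL6. Over the whole promoter CXCL1 and CXCL3 were 82.5% identical, CXCL1 and CXCL2 were 71.9% identical, and CXCL5 and CXCL6 were 83.1% identical. CXCL1 and CXCL8 were 45.2% identical, and CXCL8 and CCL20 were 52.0% identical. The coding sequences followed the same grouping, with 93.5% identity for CXCL1 and CXCL2, 94.4% for CXCL2 and CXCL3, 87.5% for CXCL5 and CXCL6 and 53.7% for CXCL1 and CXCL8.

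CXCL8 and CCL20 are shown in full because their promoters were laid out differently. CXCL8 has the run in capitals, and CCL20 has no copy of it.
CXCL8 (chr4:73740319-73740618, plus strand): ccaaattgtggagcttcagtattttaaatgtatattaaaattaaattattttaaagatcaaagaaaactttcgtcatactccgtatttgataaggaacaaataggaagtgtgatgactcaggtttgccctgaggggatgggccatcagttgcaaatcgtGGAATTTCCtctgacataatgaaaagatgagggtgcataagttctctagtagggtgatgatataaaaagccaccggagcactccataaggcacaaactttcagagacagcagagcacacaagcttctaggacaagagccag
CCL20 (chr2:227813592-227813891, plus strand): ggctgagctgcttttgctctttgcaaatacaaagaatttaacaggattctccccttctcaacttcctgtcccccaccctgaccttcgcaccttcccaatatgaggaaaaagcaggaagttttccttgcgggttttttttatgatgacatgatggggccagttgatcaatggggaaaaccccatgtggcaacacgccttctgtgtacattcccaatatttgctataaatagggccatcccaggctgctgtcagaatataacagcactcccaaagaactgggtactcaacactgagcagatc

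The NF-kB consensus was found on either strand in CXCL1, CXCL2, CXCL3, CXCL5, CXCL6 and CCL20 and in 5.91% of all promoters. It overlaps the run above in these genes except CCL20, which has no copy of the run. CXCL8 has the run and no match to the consensus. In CCL20 the consensus ended 69 bases before the start. The AP-1 type motif TGANTCA was in CXCL8 alone among the 7 promoters and in 7.71% of all promoters. The C/EBP type motif TTGCNNAA was in CXCL2 alone among them and in 10.5% of all. The letters ttgcaaat in CXCL8 and CCL20 differ from this pattern only in the last letter and were not counted. The TATAAA box was in CXCL8 and CCL20 and in 11.5% of all, 25 and 23 bases before the start. Each motif was searched on both strands, and a match or its absence is a description of the letters only.

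**Figure D1:**
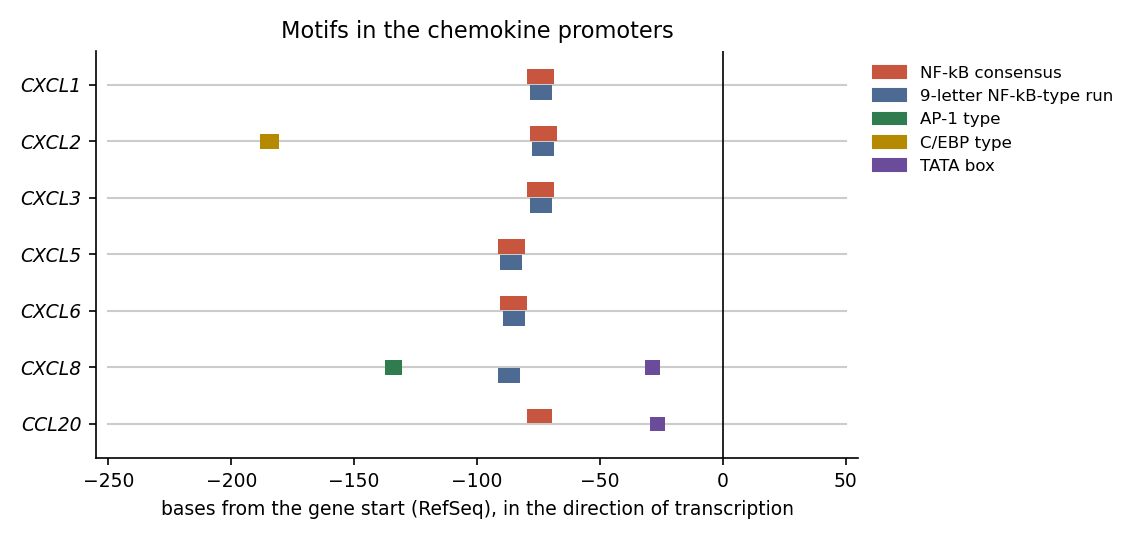
Motifs in the promoters of 7 chemokine genes, drawn to scale by their distance in bases from the RefSeq gene start. Coloured boxes are motif matches on either strand, and the 9-letter NF-kB-type run lies between 68 and 91 bases before the start in 6 genes.

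The 3′ UTRs were read for the pentamer ATTTA, the core of AU-rich elements, on the transcript strand only and with overlapping copies counted. CXCL5 had 11 copies, CXCL2 had 10, CXCL8 had 9, CXCL3 had 7, CXCL1 and CXCL6 had 6 each, CCL20 had 3 and CCL2 had 1. Per kb of 3′ UTR, CXCL2 had 14 copies and CCL2 had 2.66, against a median of 1.55 over 19173 protein-coding genes, and 7 of 8 members were above the 90th percentile. At least 5 copies were found in 6 members and in 29.4% of all these genes. The 30 bases richest in the pentamer are given for the 5 genes in which they hold at least 2 copies, with the pentamer in capitals.
CXCL1 (chr4:73870665-73870694, plus strand): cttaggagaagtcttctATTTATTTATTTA
CXCL2 (chr4:74097590-74097619, minus strand): aagtcttctATTTATTTATTTATTTATTTA
CXCL3 (chr4:74037090-74037119, minus strand): ttacgagggttctacttATTTAtgtATTTA
CXCL5 (chr4:73996688-73996717, minus strand): caaacaatttgaatataaATTTAtcATTTA
CXCL8 (chr4:73743108-73743137, plus strand): taacctATTTAttATTTAtgtATTTATTTA

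In CXCL2 the stretch held 5 overlapping copies and in CXCL1 it held 3. The stretch of CXCL8 had 4 copies, of which the last 2 overlap, and those of CXCL3 and CXCL5 had 2 copies set apart.

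The libraries held 22621338 to 26130882 reads on genes. The authors' values are reads adjusted to a common library size, here called adjusted reads. Markers of the labelled cell type were present at uneven levels: KRT8, a simple epithelial keratin, had 40092 to 53035 adjusted reads. KRT19, CDH1, WT1 and MUC16 were low, from 8.02 in KRT19 to 41.6 in CDH1. EPCAM, KRT7, KRT18, PAX8 and MSLN lay between, from 431 in EPCAM to 25652 in KRT18. Of the epithelial markers KRT8, KRT18 and CDH1 passed the test as higher and KRT7 as lower, and of 4 ovarian carcinoma markers MSLN passed as lower. Of 12 leukocyte markers CD3E and FCGR3B had no read, and PTPRC, the gene for CD45, had no more than 2 reads in any library. The leukocyte list summed to 1159 to 1327 adjusted reads in DMSO and 1547 to 1647 in pladienolide B, mostly from CD68, a lysosomal protein gene also read in tumour cells, which had 1091 to 1590. CD68 passed as higher and ITGAM as lower. CDH1 lost its call in 6 of 14 alternatives, and ITGAM and PDGFRB lost theirs in 5 of 14 each. Of 5 fibroblast markers COL1A1 and PDGFRB passed as lower. The fibroblast list summed to 6968 to 7145 adjusted reads in DMSO and 5903 to 6567 in pladienolide B. Most came from COL1A1, which had 5602 to 6902. Of 4 endothelial markers 3 were tested and 0 were called in the main limma fit, in edgeR or in DESeq2. In that limma fit 2 of them had an unadjusted p below 0.05, VWF (log2 fold change 0.64, adjusted p = 0.0549) and KDR (0.73, adjusted p = 0.0641), which were named after their values were seen and in which every treated library was above every control. Limma called 2 endothelial markers with at least 10 in every sample, 1 without the variance trend and 1 without DMSO replicate 2. The endothelial list summed to 59.9 to 82.6 adjusted reads in DMSO and 81.6 to 114 in pladienolide B. The part of these markers in the chemokine values was not tested. In bulk RNA fewer cells making a transcript and less transcript per cell cannot be told apart.

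Mean mRNA levels of CXCL1, CXCL2, CXCL3, CXCL5, CXCL8 and CCL20 were higher in pladienolide B than in DMSO. In CXCL2, CXCL5, CXCL8 and CCL20 the libraries of the 2 groups overlapped. All 6 members that passed the filter on low values were called higher by limma (adjusted p below 0.05 over 16178 genes tested), while 22.4% of the genes tested were called higher and 25.2% lower. The number called higher was 3 with DESeq2, 2 with limma without the variance trend, and 3 without DMSO replicate 1, pladienolide B replicate 1 or pladienolide B replicate 2. CXCL1 rose most, 2.02-fold in the fit, and the other 5 rose between 1.28-fold and 1.53-fold. In CXCL1 and CXCL3 every pladienolide B library was above every DMSO library, which held for 26.4% of the genes tested. CXCL1 alone reached 2-fold, against 1.95% of the genes tested. CXCL6 and CCL2 were near 0 in both groups and were not tested. The median log2 fold change of the 6 members tested was 0.53, and that of all genes tested was -0.0042. Since these 6 passed the filter through both groups, and the members had been listed with results of these data known, the counts are a description.

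Among the CXCL1, CXCL2 and CXCL3 genes, which arose from a common ancestor and code for growth-regulated oncogene proteins, CXCL1 had 443, 501 and 529 adjusted reads in DMSO and 1362, 917 and 781 in pladienolide B. The lowest treated library thus stood well above the highest control. The log2 fold change was 1.02 ± 0.14 (SE, n = 3 per group, 95% interval 0.73 to 1.30, adjusted p = 1.1e-05, limma). CXCL1 was called higher in 14 of 14 alternative settings, with values from 0.79 to 1.19. Values below 2-fold were among these, the lowest without pladienolide B replicate 1, and the 95% interval also reached below 2-fold.

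CXCL3 had the lowest level of the 3. It had 49.8, 50.4 and 56.8 adjusted reads in DMSO and 93.6, 80.1 and 70.2 in pladienolide B. No treated library reached down to a control, and the treated libraries kept the order seen for CXCL1. The log2 fold change was 0.62 ± 0.18 (SE, n = 3 per group, 95% interval 0.24 to 1.0, adjusted p = 0.00965, limma). Without pladienolide B replicate 1 it was 0.51 with an adjusted p of 0.0594 in limma, the highest of a range from 0.00819 over the 14 alternatives.

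CXCL2 had 875, 790 and 992 adjusted reads in DMSO and 1320, 1301 and 838 in pladienolide B. Treated replicates 1 and 2 were above every control, and treated replicate 3 lay within the control range. The log2 fold change was 0.36 ± 0.13 (SE, n = 3 per group, 95% interval 0.09 to 0.62, adjusted p = 0.0283, limma). The call was lost in 6 of 14 alternatives, over which the adjusted p ranged from 9.59e-05 to 0.21. In limma the value was 0.35 without DMSO replicate 1 (adjusted p = 0.0512), 0.28 without DMSO replicate 2 (adjusted p = 0.0722), 0.24 without pladienolide B replicate 1 (adjusted p = 0.16) and 0.25 without pladienolide B replicate 2 (adjusted p = 0.173). Without pladienolide B replicate 3 it was 0.57.

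Because these genes are near copies, reads could have been shared between them. Of the 50-base words of the canonical transcripts, 5.33% of those of CXCL1, 10.1% of those of CXCL2 and 5.26% of those of CXCL3 were also in another member, and none were in the other 5 genes. No word of 100 bases was shared. The read length is not given in the sources used here, and exact words do not cover reads aligned with mismatches. The split of reads among these 3 genes is thus uncertain, and CXCL3 had the lowest level of them.

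CXCL8, the classical neutrophil attractant, was the most abundant member per kb of transcript. It had 2154, 2222 and 2493 adjusted reads in DMSO and 3894, 3679 and 2430 in pladienolide B. Treated replicates 1 and 2 were far above the controls, and treated replicate 3 was below DMSO replicate 3. The log2 fold change was 0.51 ± 0.12 (SE, n = 3 per group, 95% interval 0.27 to 0.76, adjusted p = 0.00156, limma). The call held without any 1 library, with values from 0.39 to 0.73, and was lost without the variance trend (adjusted p = 0.0822, limma, in a range from 9.17e-07 over the 14 alternatives).

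CXCL5, which codes for the epithelial neutrophil attractant ENA-78, had 842, 941 and 923 adjusted reads in DMSO and 1112, 1702 and 894 in pladienolide B. The highest value was in treated replicate 2, and treated replicate 3 lay within the control range. The log2 fold change was 0.40 ± 0.14 (SE, n = 3 per group, 95% interval 0.10 to 0.71, adjusted p = 0.03, limma). Without pladienolide B replicate 2 it was 0.15 (adjusted p = 0.206, limma), without DMSO replicate 1 it was 0.35 (adjusted p = 0.0778, limma), and without pladienolide B replicate 3 it was 0.61. Its adjusted p ranged from 0.00145 to 0.223 over the alternatives, and the call was lost in 4 of 14.

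Its nearest relative CXCL6 had 0, 1 and 0 reads in DMSO and 2, 0 and 2 reads in pladienolide B. The ratio of summed reads per library depth was 4.41, with an exact 95% interval of 0.436 to 217 that covers counting error only, so no difference was detectable at this depth. CXCL5 and CXCL6 thus stood far apart in level, and the promoters of both hold the NF-kB type run shown above.

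CCL20 had 511, 555 and 636 adjusted reads in DMSO and 869, 1211 and 531 in pladienolide B. As for CXCL5, treated replicate 2 was highest and treated replicate 3 fell among the controls. The log2 fold change was 0.54 ± 0.18 (SE, n = 3 per group, 95% interval 0.15 to 0.93, adjusted p = 0.0223, limma). In limma it was 0.27 without pladienolide B replicate 2 (adjusted p = 0.186), 0.51 without pladienolide B replicate 1 (adjusted p = 0.0708) and 0.47 without DMSO replicate 1 (adjusted p = 0.0633). Without pladienolide B replicate 3 it was 0.86. Over the alternatives its adjusted p ranged from 6.88e-05 to 0.203, and the call was lost in 5 of 14. CCL2, the monocyte attractant, had no read in any DMSO library, and a count of 0 allows up to 3 reads. In pladienolide B it had 0, 1 and 0 reads, so no difference was detectable at this depth.

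**Figure D2:**
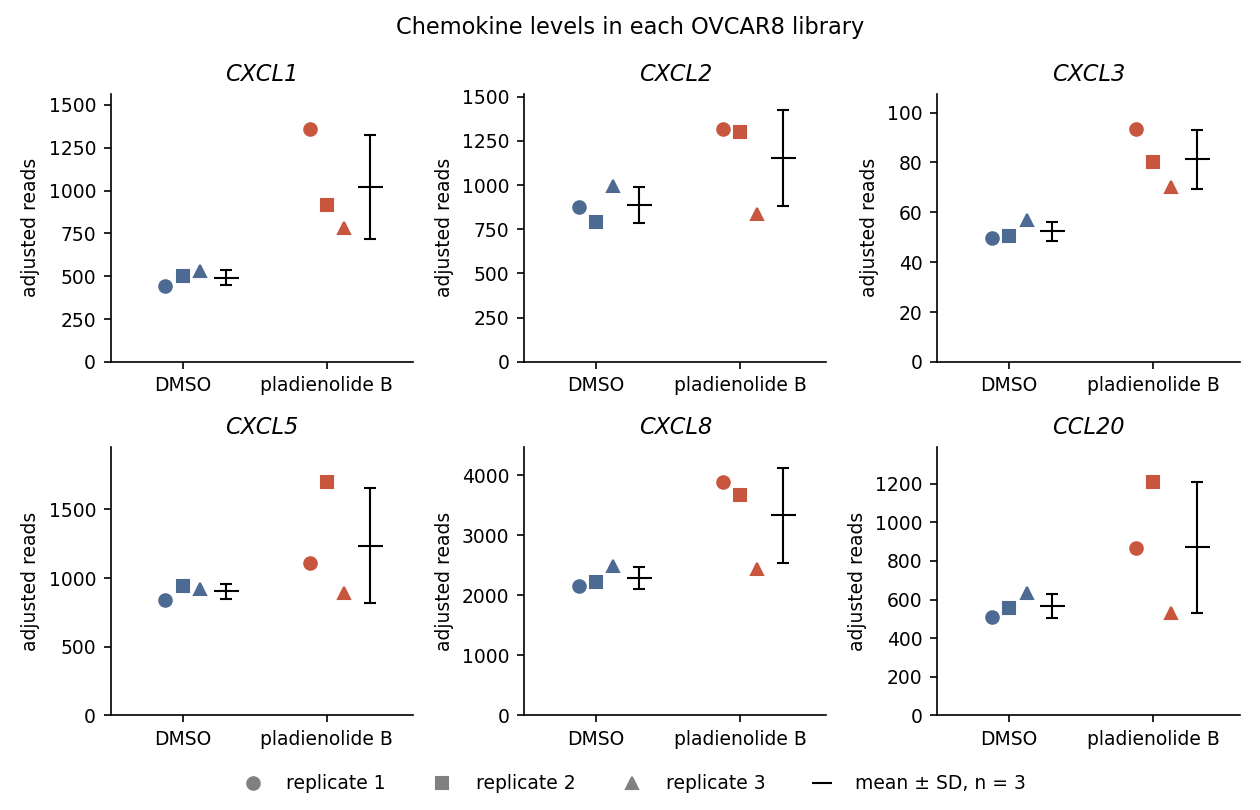
Adjusted reads of the 6 tested chemokine genes in each library, on linear axes from 0, with the mean and SD of 3 replicates beside them. The pladienolide B libraries lie apart from DMSO in CXCL1 (781 to 1362 against 443 to 529) and CXCL3, and replicate 3 (triangle) is the lowest treated library in all 6 panels.

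**Figure D3:**
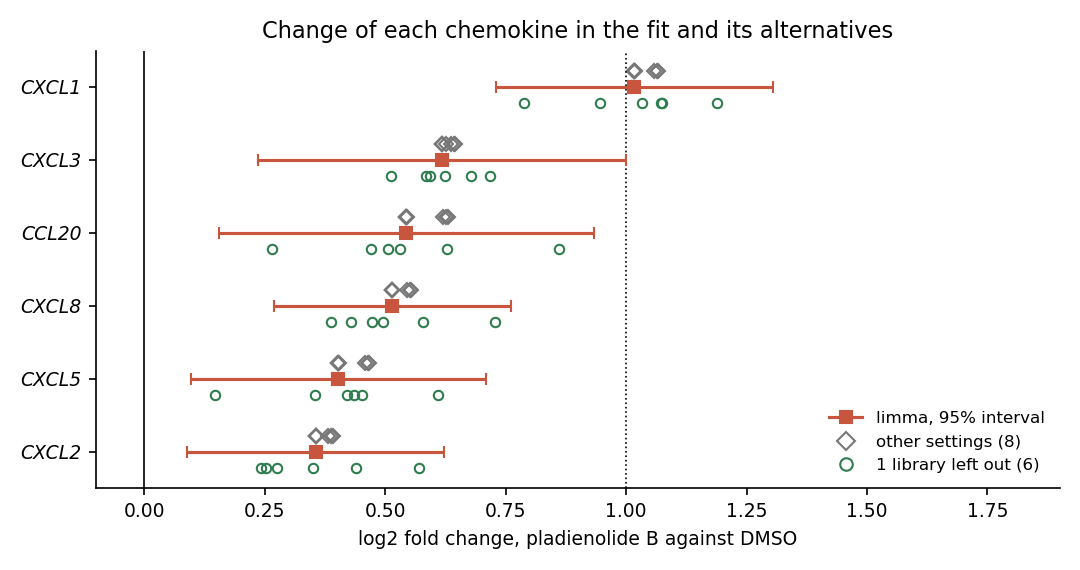
Log2 fold change of each chemokine with its 95% interval from limma (squares), under 8 other settings (diamonds) and with each of 6 libraries left out (circles). The dotted line is a 2-fold change, and all values are above 0, from 0.15 for CXCL5 to 1.19 for CXCL1.

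Pladienolide B replicate 3 was the lowest treated library in 6 of 6 members. Among the 3618 genes called higher, it was the lowest in 40.2%. Relative to the DMSO mean on the log2(value + 1) scale, replicate 3 was 1.59-fold for CXCL1, 1.34-fold for CXCL3, 1.06-fold for CXCL8, 0.99-fold for CXCL5, 0.95-fold for CXCL2 and 0.94-fold for CCL20. Replicate 1 was 2.78-fold for CXCL1 and 1.54-fold for CCL20, and replicate 2 was 1.87-fold for CXCL1 and 2.14-fold for CCL20. The same ratio, as the median over all genes called higher, was 1.26 in replicate 1, 1.26 in replicate 2 and 1.24 in replicate 3, and a median over so many genes says nothing of the spread of a single gene. Replicate 1 was the highest treated library for CXCL1, CXCL2, CXCL3 and CXCL8, and replicate 2 was the highest for CXCL5 and CCL20.

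**Figure D4:**
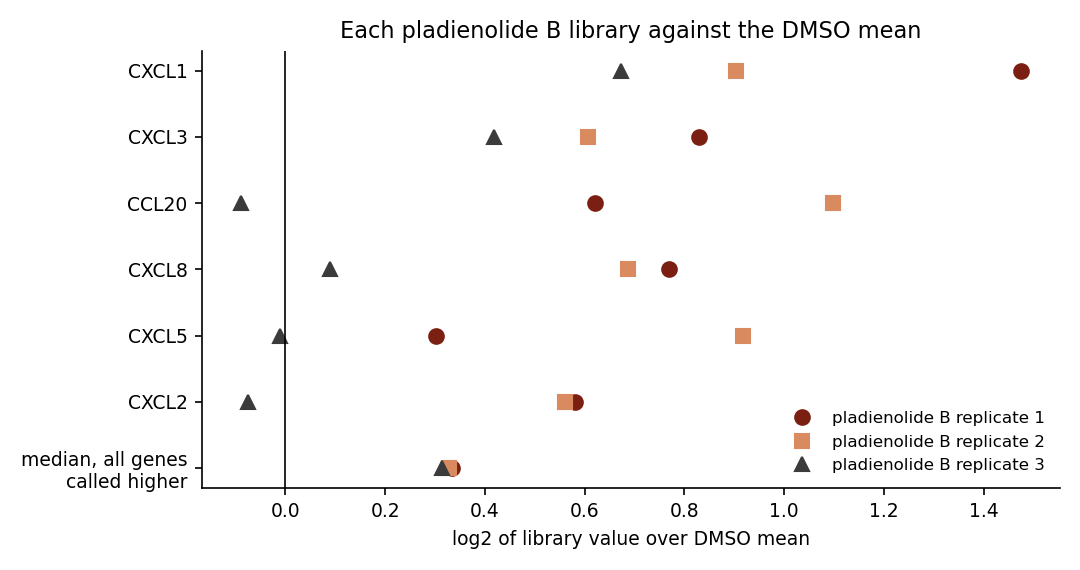
Log2 ratio of each pladienolide B library to the DMSO mean for the 6 chemokines and as a median over the 3618 genes called higher. Replicate 3 is the lowest treated library for each chemokine, from -0.09 for CCL20 to 0.67 for CXCL1, and the median, taken over many genes, does not show how far single genes spread.

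After group means were removed, Pearson's r of log2(value + 1) over the 6 libraries ranged from 0.141 for CXCL1 and CXCL5 to 0.964 for CXCL2 and CXCL8 among the 15 pairs of members. It was 0.943 for CXCL1 and CXCL3 and 0.940 for CXCL5 and CCL20, and it was nearly as high for CXCL3 and CXCL8 (0.895), CXCL8 and CCL20 (0.875), CXCL2 and CCL20 (0.868) and CXCL2 and CXCL3 (0.855). These values are a description over 6 points that share library and depth adjustment, and removing the group means leaves fewer of them free. In each member the treated libraries spread more than the controls, so they weigh most in these values. The genes outside the members whose log2(value + 1) followed the mean standardised member profile most closely over the 6 libraries were IFITM10 (r = 0.9949), LOC101927741 (r = 0.9934), CD55 (r = 0.9929), ADPRHL1 (r = 0.9913) and PTPRK (r = 0.9912). They were picked for the highest r among all genes tested, so high values come with the picking. IFITM10 had 15.97, 16.1 and 19.0 adjusted reads in DMSO and 33.3, 39.2 and 19.1 in pladienolide B, and it did not pass the test (adjusted p = 0.0577, limma). Neither did LOC101927741 (adjusted p = 0.121, limma). In CD55, which codes for a complement inhibitor at the cell surface, the values were 849, 870 and 876 in DMSO and 1010, 1034 and 887 in pladienolide B.

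To compare levels between members, adjusted reads were divided by the length of the canonical transcript in kb. In DMSO the order of levels per kb was CXCL8 (1394 ± 109, SD, n = 3), CXCL2 (795 ± 91.0), CCL20 (680 ± 76.2), CXCL1 (418 ± 37.4), CXCL5 (370 ± 21.7) and CXCL3 (48.7 ± 3.61). CXCL2 and CCL20 overlapped in this order, as did CXCL1 and CXCL5, while the other neighbours did not. In pladienolide B the order was CXCL8 (2031 ± 481), CCL20 (1044 ± 408), CXCL2 (1034 ± 245), CXCL1 (869 ± 259), CXCL5 (507 ± 172) and CXCL3 (75.6 ± 10.9). The libraries of CCL20, CXCL2 and CXCL1 overlapped there, and so did those of CXCL1 and CXCL5. CXCL8 thus stayed at the top and CXCL3 at the bottom.

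Few other chemokine ligands were expressed. Of 40 listed, 38 were in the table, 7 of them had no read in any library and 35 had a mean below 10, which left 3 to test. CCL28, an epithelial ligand of CCR10 and CCR3, had 657, 505 and 604 adjusted reads in DMSO and 341, 386 and 309 in pladienolide B, and it fell without overlap (log2 fold change -0.77 ± 0.10, SE, adjusted p = 9.13e-06, limma). CCL26, an eosinophil attractant, had 1.78, 15.1 and 1.79 in DMSO and 13.6, 12.8 and 15.03 in pladienolide B, with overlap between groups (1.57 ± 0.60, adjusted p = 0.0401, limma). Only DMSO replicate 2 of the controls reached 10, so CCL26 passed the filter through its treated libraries. Its call is a description. CCL26 lost its call in 10 of the 13 alternatives that gave it a value, over which its adjusted p ranged from 0.00091 without DMSO replicate 2 to 0.167 with DESeq2. CXCL16 was not called.

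Receptors for the members were near 0 in these cells. CXCR1 had 0, 0 and 0 reads in DMSO and 2, 1 and 0 in pladienolide B, and CXCR2 had 0, 1 and 1 against 0, 0 and 0. CCR6, the receptor of CCL20, had 0, 0 and 1 reads against 1, 4 and 1, and CCR2, the receptor of CCL2, had none. These 4 genes were named for their ligands after their values were seen. Of 23 receptor genes 6 were tested. CCRL2, an atypical receptor that presents chemerin, had 10.3, 14.1 and 10.4 adjusted reads in DMSO and 46.0, 61.6 and 47.1 in pladienolide B and rose by 2.06 ± 0.28 on the log2 scale (SE, adjusted p = 1.22e-05, limma). CXCR4, the receptor of CXCL12, had 642, 547 and 753 in DMSO and 321, 367 and 306 in pladienolide B (-0.96 ± 0.10, adjusted p = 9.94e-07, limma).

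Among 19 inducers of these chemokines and their receptors, 14 were tested, 9 were called higher and 3 lower, with a median log2 fold change of 0.30, beside 22.4% of all genes tested called higher and 25.2% lower. IL1B, the gene for interleukin-1 beta, had 510, 494 and 477 adjusted reads in DMSO and 2872, 3394 and 1902 in pladienolide B, and its log2 fold change was 2.42 ± 0.13 (SE, adjusted p = 3.38e-10, limma). As in the 6 chemokines, treated replicate 3 was its lowest treated library, here still above every control. That replicate was the lowest in 40.2% of all genes called higher. IL1R1, the signalling receptor of interleukin-1, had 106, 92.8 and 99.2 in DMSO and 186, 215 and 218 in pladienolide B (1.05 ± 0.13, adjusted p = 3.61e-06, limma). IL1RAP, the gene for its accessory protein, was lower, at 446, 369 and 414 against 289, 303 and 300 (-0.46 ± 0.09, adjusted p = 0.000447, limma). IL1RAP was named after its values were seen. TNF had 319, 372 and 334 in DMSO and 742, 506 and 568 in pladienolide B (0.81 ± 0.11, adjusted p = 1.56e-05, limma). The lowest treated library was replicate 1 for IL1R1 and replicate 2 for TNF. TLR3, the sensor of double-stranded RNA, was lower, at 50.8, 47.4 and 57.8 against 31.3, 34.1 and 27.1.

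Genes of factors that act on chemokine promoters and mRNAs were read beside the same shares of all genes tested, 22.4% higher and 25.2% lower. Of 24 NF-kB genes tested, 7 were called higher and 4 lower, with a median log2 fold change of 0.0037, so these counts were near the background. TNFAIP3, the feedback inhibitor A20, had a log2 fold change of 0.53, the adaptor MYD88 of 0.48, the inhibitor NFKBIE of 0.46 and BCL3 of -0.50. Of 12 AP-1 and C/EBP genes tested, 2 were called higher and 7 lower, with a median of -0.21. FOSL1 had 5069, 5869 and 5392 adjusted reads in DMSO and 11567, 11026 and 11032 in pladienolide B (1.04 ± 0.05, SE, adjusted p = 6.14e-11, limma). FOS had 401, 372 and 447 in DMSO and 55.6, 85.3 and 100.2 in pladienolide B (-2.36 ± 0.17, adjusted p = 7.06e-09, limma). FOSB (-0.75) and FOSL2 (-0.58) were lower too, and FOSB, at 36.1 to 99.6 adjusted reads, lost its call in 3 of 14 alternatives. Of 19 genes of AU-rich mRNA decay and stability tested, 5 were called higher and 5 lower, with a median of 0.02, again near the background. ZFP36, the decay factor tristetraprolin, had a log2 fold change of 0.70, ZC3H12C of 0.46, RC3H2 of 0.36 and the deadenylase subunit CNOT8 of -0.50.

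**Figure D5:**
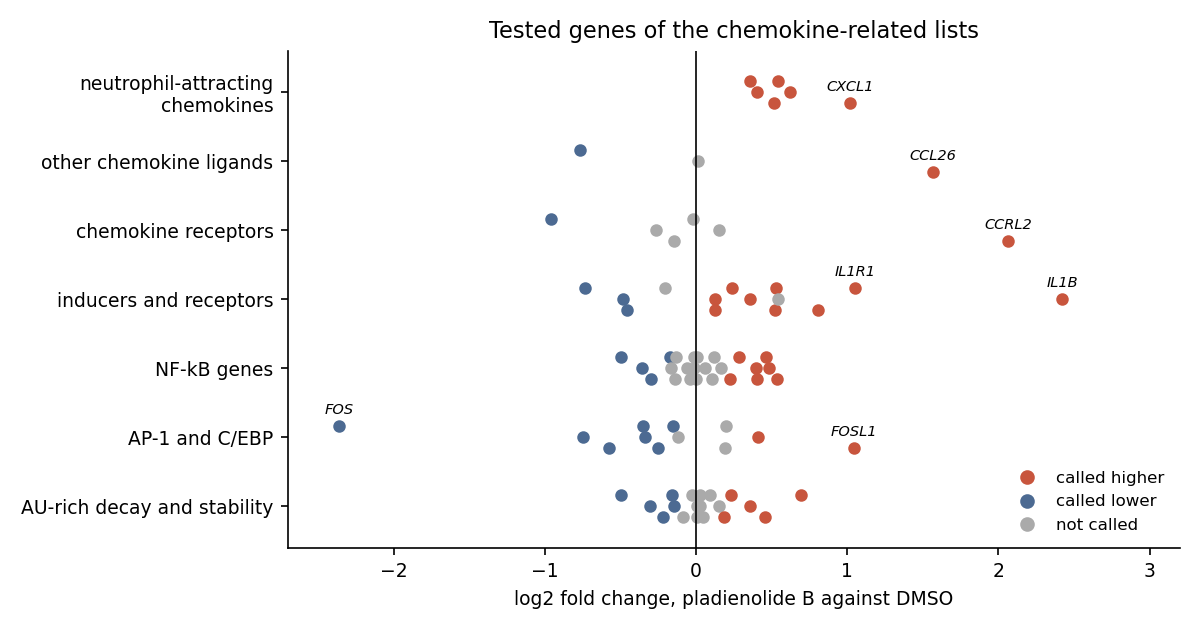
Log2 fold change of every tested gene in the chemokine-related lists, coloured by the limma call (adjusted p below 0.05), with genes of at least 2-fold change named. The 6 tested chemokines lie to the right of 0, while the NF-kB, AP-1 and C/EBP and AU-rich decay lists lie on both sides.

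Genes next to the chemokines did not all move with them. Over all genes tested 22.4% were called higher and 25.2% lower, and counts over the few genes here are a description. Within 500 kb of the chromosome 4 members the table held 21 other genes, of which 5 were tested. MTHFD2L, a mitochondrial folate enzyme gene 24078 bases from the nearest member, was called higher (0.54 ± 0.10, SE, adjusted p = 0.000329, limma), and so was AREG, which codes for the growth factor amphiregulin (0.70 ± 0.12, adjusted p = 0.000107, limma). ANKRD17, AFP and RASSF6 were not called. Around CCL20, 6 of 13 genes were tested (COL4A3, MFF-DT, MFF, AGFG1, SLC19A3 and DAW1), and 0 of them were called by limma, by edgeR or by DESeq2, with 0 at an unadjusted p below 0.05 in limma. AGFG1 was called without DMSO replicate 2 (0.12) and without pladienolide B replicate 3 (0.14). Around CCL2, 0 of 18 genes passed the filter.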

How the data were processed

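Poly(A) RNA was sequenced from OVCAR8 cells in 2 groups of 3 samples. The authors trimmed reads and aligned them to hg38 with hisat2, while the submitters' processing notes name hg19, HISAT2, HTSeq 0.12.4 and DESeq2. The positions in the table are those of GRCh38. Strandedness was not given in the sources used here. The authors deposited for each gene and sample a signal adjusted for library size. It matched counts adjusted by quantiles as edgeR does (common dispersion 0.0027), and inverting it gave whole reads from which every deposited value was obtained again to within 4.91e-05. The authors' columns of fold change, p-value and q-value were not used.

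The deposited signal was tested with limma 3.58.1 (variance trend, two-sided) on log2(value + 1), which makes changes of low genes smaller. Genes were kept by filterByExpr of edgeR 4.0.16 (10 reads in 3 samples, 15 in total), and p-values were adjusted by Benjamini-Hochberg over 16178 genes. Alternatives were other filters, a pseudocount of 0.1, limma without the trend, a replicate block, leaving out each sample, and edgeR and DESeq2 1.42.0 on recovered reads. The scripts were tested on simulated data with known changes. Identities came from global alignment with Biopython 1.88.

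The members and gene lists were chosen with earlier results of these data known. Named are the members, called chemokine ligands and receptors, at most 4 called genes of each other list by size of change (all of at least 2-fold, or the largest where fewer than 3 are), tested genes within 500 kb of a member, and the 5 genes most like the member profile.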

Additional observations from a re-analysis of the deposited data

How the results depend on the processing

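Over 14 alternatives the members' log2 fold changes stayed above 0 in 84 of 84 values, and 67 of these kept the call of the main test. The number of members called higher was 6 with no filter, with 10 in every sample, with a pseudocount of 0.1, with edgeR under TMM or RLE factors and with the replicate block, 3 with DESeq2 (CXCL1, CXCL3 and CXCL8), 2 with limma without the variance trend (CXCL1 and CXCL3), and 3 to 6 when 1 library was left out. With DESeq2 the values that lost the call were 0.39 for CXCL2, 0.47 for CXCL5 and 0.63 for CCL20. Without the variance trend they were 0.36 for CXCL2, 0.40 for CXCL5, 0.51 for CXCL8 and 0.54 for CCL20. With 1 library left out, the range was 0.79 to 1.19 for CXCL1, 0.24 to 0.57 for CXCL2, 0.51 to 0.72 for CXCL3, 0.15 to 0.61 for CXCL5, 0.39 to 0.73 for CXCL8 and 0.27 to 0.86 for CCL20. Each setting with 1 library left out has fewer residual degrees of freedom than the main test. All 6 members were still called without DMSO replicate 3 and without pladienolide B replicate 3. The cause of the lost calls was not tested.

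Other chemokine ligands called were 2 in the main test, and 1, CCL28, with no filter, with 10 in every sample, with edgeR under TMM or RLE, with DESeq2 and without the variance trend, and 1 to 2 with 1 library left out. Of the 2, CCL26 passed the filter through its treated libraries. The genes called were 7695 in the main test and 6381 to 7836 over the alternatives. Replicate numbers do not pair the samples (correlations of deviations -0.0183, -0.0175 and 0.00261). With the replicate block 7349 genes were called, and the 6 members were still called.

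Of 627 values for 45 named genes outside the members, 563 kept direction and call, 45 lost the call (10 of them in CCL26, 6 each in CDH1 and CD55, and 5 each in ITGAM and PDGFRB), 6 gained it and 13 changed sign. The sign changes were in genes near the members that were not called: MFF-DT (0.065 with edgeR under TMM, 0.072 under RLE and 0.069 with DESeq2, and -0.57 to 0.25 with 1 library left out), COL4A3 (-0.11 to 0.091), SLC19A3 (-0.23 to 0.37) and AFP (-0.14 to 0.46). Depth limits CXCL6 and CCL2, for which 4 and 1 reads in all were found in the treated group.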
